A study of Mus musculus with 12 samples.

Results

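Malat1, Neat1, Miat, Snhg11, Leng8 and Snrnp70 are 6 mouse genes whose RNAs or protein products work in the cell nucleus, and 4 of them are long noncoding RNAs. They were chosen by their RPKM levels in these same libraries, which were high in part of the PBS group, so their levels, ratios and group differences are a description and carry no test. They are 6 of 23260 genes, and 7 of 30399 transcript rows, in the deposited table of RPKM (a read count scaled to transcript length and library depth).

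The study asked whether microRNAs placed in the zygote leave a trace in the adult hypothalamus. In the group called miR, zygotes of the hybrid strain C57/Bl6:129S6/SvEvTac were microinjected with 9 miRIDIAN mimics in 1X DPBS at 1 ng/uL in total, 0.11 ng/uL each. The mimics were miR-375, miR-204 and miR-698, miR-29c and miR-32, both miR-30a and miR-30c, and miR-532-3p with miR-193-5p. In the group called PBS, zygotes of the same strain received 1X DPBS only. All embryos were carried by CD1 dams, and the paraventricular nucleus (PVN), the hypothalamic nucleus that starts the hormonal stress response, was punched from males of 18 to 20 weeks with a 1.0 mm needle. Each group had 6 animals, 1 poly-A library each, numbered 1 to 6 in miR and 7 to 12 in PBS, and the labels do not say which shared a litter, an RNA extraction or a library batch. A batch shared by some PBS libraries and a difference between the groups cannot be told apart. Because a punch holds many cell types, fewer cells of a type and less RNA per cell cannot be told apart.

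Most messenger RNAs leave the nucleus soon after they are spliced and polyadenylated, whereas some long noncoding RNAs and some messenger RNAs with unspliced introns stay inside it. Malat1 gathers at nuclear speckles, the stores of splicing factors, and Neat1 is the scaffold of the paraspeckles beside them. Miat, also called Gomafu, lies in separate nuclear spots of neurons, and Snhg11 is a neuron-rich noncoding RNA whose gene hosts small nucleolar RNAs. Leng8 encodes a nuclear protein with a SAC3 domain, the domain of the core protein of the TREX-2 export complex in yeast. Snrnp70 encodes the U1-70K protein of the U1 particle, which recognises 5' splice sites and shields transcripts from premature cleavage.

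Malat1 is shown by its sequence first because it bears on how a poly-A library can hold this RNA. Malat1 has no poly-A tail added after cleavage: its mature 3' end is cut beside a genomically encoded A-rich tract, and the downstream piece is released as a small tRNA-like RNA. The 20 bases richest in A in its transcript, with 17 A, are in capitals in the line below and lie at that tract, ending 290 bases before the annotated transcript end.

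Malat1 A-rich stretch: gctttAAAAAAAAAAAAGCAAAAGAcgctg

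A stretch with as many A was present in 11.6% of the tested genes with a sequence. Snhg11 had one as rich, and the richest 20 bases of the other 4 genes held 12 or 13 A, against a median of 13. The transcripts differed widely in base composition, from 42.5% GC in Malat1 and 44.8% in Snhg11 to 51.1% in Neat1, 54.9% in Miat, 56.7% in Leng8 and 58.5% in Snrnp70. The median over 13004 tested genes was 50.6%. Of the tested genes 10.9% had a lower GC content than Malat1 and 90.1% a lower one than Snrnp70. The 6 genes therefore did not share a GC content, and their transcripts ran from 1735 bases in Snrnp70 to 8758 bases in Miat in the GENCODE M21 annotation.

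Promoters were read for the 5 genes found in the RefSeq promoter table (GRCm38.p6), as the 250 bases before each start on the gene's own strand, and 3 are printed: that of Malat1, the gene with 1 outstanding PBS library, and those of Leng8 and Snrnp70, the protein-coding genes with 4 PBS libraries close together. Motifs were searched on both strands as exact letters: TGACG (the core of the cAMP response element), GGGCGG (the GC box), CCAAT (the CCAAT box), TATAAA (the TATA box), CACGTG (the E-box) and CGCATGCG (the core of the site of the factor NRF1). No printed match overlaps another. The cAMP core and the NRF1 core were added to the search after these sequences had been seen. Capitals mark every match.

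Malat1, chr19:5802673-5802922, minus strand: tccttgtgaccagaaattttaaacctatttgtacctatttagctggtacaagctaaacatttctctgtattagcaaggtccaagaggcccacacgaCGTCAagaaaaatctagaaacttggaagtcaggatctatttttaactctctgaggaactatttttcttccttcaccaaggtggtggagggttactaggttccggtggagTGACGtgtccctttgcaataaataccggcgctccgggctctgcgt
Leng8, first start, chr7:4136806-4137055, plus strand: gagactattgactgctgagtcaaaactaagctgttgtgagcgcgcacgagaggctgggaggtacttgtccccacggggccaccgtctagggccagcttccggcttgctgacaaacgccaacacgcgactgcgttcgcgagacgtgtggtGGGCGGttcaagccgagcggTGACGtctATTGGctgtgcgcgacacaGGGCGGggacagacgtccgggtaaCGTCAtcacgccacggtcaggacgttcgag
Snrnp70, chr7:45395743-45395992, minus strand: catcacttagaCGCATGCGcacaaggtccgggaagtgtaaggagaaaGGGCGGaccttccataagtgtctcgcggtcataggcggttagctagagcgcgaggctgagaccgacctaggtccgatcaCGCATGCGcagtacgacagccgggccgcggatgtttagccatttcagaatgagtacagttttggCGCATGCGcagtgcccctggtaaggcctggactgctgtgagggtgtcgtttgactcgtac

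Malat1 held the cAMP core at 2 places and Leng8 at 2 places, and 17.8% of 32851 promoters of this length hold it. Snrnp70 held the NRF1 core at 3 places, the second start of Leng8 held it at 1, and 1.55% of promoters hold it at any place. GC boxes lay in the promoters of Leng8, Snrnp70 and Miat (32.7% of all promoters), a CCAAT box in that of Leng8 (33.8%), and the letters of the TATA box (12.4%) and the E-box (6.02%) in none. The Snhg11 promoter held none of these letters. No motif searched was shared by the 5 genes, which says only that these letters are not in all of these windows.

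The table could not divide the genes by isoform. Malat1, Neat1, Snhg11, Leng8 and Snrnp70 have 1 transcript row each, and Miat has 2. The Miat rows NR_003718 and NR_033657 differed by a constant ratio of 1.00455 to 1.00505 in all 12 libraries, so the same reads filled both and both carried the high PBS values. The Neat1 row NR_003513 (mm9 chromosome 19, 5842302 to 5845478, minus strand, 3177 bases) is the short polyadenylated form, and the table has no row for the long form on which paraspeckles are built. Reads from the first part of the long form also fall on that row. GENCODE lists a retained-intron transcript for Snrnp70 (9 of 17 transcripts), Leng8 (3 of 10) and Snhg11 (2 of 5), and none for the other 3 genes. Among 11944 tested genes matched by symbol, 56.5% have at least 1, so 3 of 6 is near the background, and the table cannot show whether such transcripts were the ones measured.

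The libraries held an estimated 22.8 to 45.2 M reads in miR and 27.6 to 38.1 M in PBS, a depth read back from the steps between the lowest values. The estimate takes each value as a mean over a pair of sequencing lanes, with the depth of a lane kept within set bounds. That assumption was not checked. At that depth the counts behind the 6 genes were not small: an estimated 302 to 1077 reads per library for Neat1, 1181 to 12390 for Malat1 and 9819 to 67522 for Snhg11. Over the 13273 genes averaging 1 RPKM or more, limma with Benjamini-Hochberg adjustment called 0 (0%) between miR and PBS at 0.05, and the lowest adjusted p it gave was 0.124. By unadjusted p under 0.05, 1210 genes (9.12%) were higher and 1477 (11.1%) lower in miR, so 55.0% of these were lower. The higher count was 676, 712 and 729 without PBS replicate 10, PBS replicate 12 and miR replicate 5 in turn, and 2011 without PBS replicate 11, while the lower count stayed within 1022 to 1917 with each library left out. That share was 41.7% with median-scaled libraries. At least 4 PBS libraries lay above the highest miR library in 1563 genes (11.8%), and all 6 PBS libraries did in 30 genes (0.226%).

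Malat1 (NR_002847, mm9 chromosome 19, 5795690 to 5802671, minus strand), the speckle RNA, had a lowest, median and highest level of 7.13, 8.36 and 10.7 RPKM in miR. In PBS it measured 7.11, 9.83, 57.0, 15.0, 11.2 and 19.2 RPKM in replicates 7 to 12. PBS replicate 9 stood alone, at 2.97 times the next library and 6.53 times the miR mean. Replicates 10, 11 and 12 lay above every miR library by much less, replicate 8 lay among the miR libraries and replicate 7 just under them. The means were 8.74 ± 1.46 RPKM in miR and 19.9 ± 18.7 RPKM in PBS (each ± SD, n = 6), a PBS spread nearly as large as the PBS mean. On the log2(RPKM + 0.5) scale, which understates changes of low genes, miR minus PBS was -0.80 (SE 0.36), and -0.43 without PBS replicate 9.

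Neat1, the paraspeckle scaffold, was the lowest of the 6. Its lowest, median and highest level in miR were 3.60, 5.18 and 5.92 RPKM. In PBS it measured 7.18, 9.34, 11.5, 8.47, 4.29 and 10.7 RPKM in replicates 7 to 12. PBS replicate 7, which lay within the miR range for Miat, Snhg11 and Leng8, was above every miR library for Neat1, and replicate 11 alone of the PBS libraries lay inside the miR range. The means were 5.02 ± 0.791 RPKM in miR and 8.59 ± 2.62 RPKM in PBS (each ± SD, n = 6), with miR minus PBS at -0.67 (SE 0.19) on the log2 scale.

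Miat (row NR_003718, mm9 chromosome 5, 112642248 to 112657968, minus strand), the RNA of neuronal nuclear spots, had a lowest, median and highest level of 6.06, 7.24 and 10.04 RPKM in miR. In PBS it measured 6.96, 21.5, 33.3, 23.9, 8.03 and 31.0 RPKM in replicates 7 to 12. Replicates 8, 9, 10 and 12 lay above every miR library, and replicates 7 and 11 among them. The means were 7.49 ± 1.35 RPKM in miR and 20.8 ± 11.2 RPKM in PBS (each ± SD, n = 6), with miR minus PBS at -1.20 (SE 0.34) on the log2 scale. The second row gave 7.45 ± 1.35 and 20.7 ± 11.1 RPKM.

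Snhg11 (NM_175692, mm9 chromosome 2, 158201374 to 158211881, plus strand), the small nucleolar RNA host, was the most abundant of the 6. Of the tested genes 98.2% had a lower mean over all 12 libraries, a mean that includes the high PBS libraries. Its lowest, median and highest level in miR were 70.5, 74.4 and 115 RPKM. In PBS it measured 74.0, 214, 370, 235, 83.3 and 285 RPKM in replicates 7 to 12. The same 4 PBS libraries as for Miat lay above every miR library. Within miR, replicate 6 lay far above the other 5 libraries, which ranged up to 79.6 RPKM. The means were 80.8 ± 17.1 RPKM in miR and 210 ± 115 RPKM in PBS (each ± SD, n = 6), with miR minus PBS at -1.17 (SE 0.34).

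Leng8 (NM_172736, mm9 chromosome 7, 4088658 to 4099775, plus strand), the SAC3-domain protein, had a lowest, median and highest level of 8.13, 8.98 and 10.4 RPKM in miR. In PBS it measured 8.78, 34.5, 38.3, 33.6, 9.97 and 39.5 RPKM in replicates 7 to 12. No library lay between 10.4 and 33.6 RPKM. The means were 9.19 ± 0.878 RPKM in miR and 27.4 ± 14.2 RPKM in PBS (each ± SD, n = 6), with miR minus PBS at -1.30 (SE 0.34), the largest difference of the 6 genes.

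Snrnp70 (NM_009224, mm9 chromosome 7, 52631824 to 52651017, minus strand), the U1-70K gene, had a lowest, median and highest level of 38.4, 41.9 and 46.4 RPKM in miR. In PBS it measured 46.5, 80.8, 82.0, 72.8, 47.4 and 89.8 RPKM in replicates 7 to 12. Snrnp70 was the only 1 of the 6 genes whose groups did not overlap, and the gap was narrow: PBS replicate 7 had 46.50 RPKM and miR replicate 1 had 46.35 RPKM. Among all 13273 tested genes, every miR library lay below every PBS library in 30 (0.226%), and Snrnp70 was picked for its high PBS levels. The means were 42.2 ± 3.14 RPKM in miR and 69.9 ± 18.6 RPKM in PBS (each ± SD, n = 6), with miR minus PBS at -0.68 (SE 0.15).

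**Figure D1:**
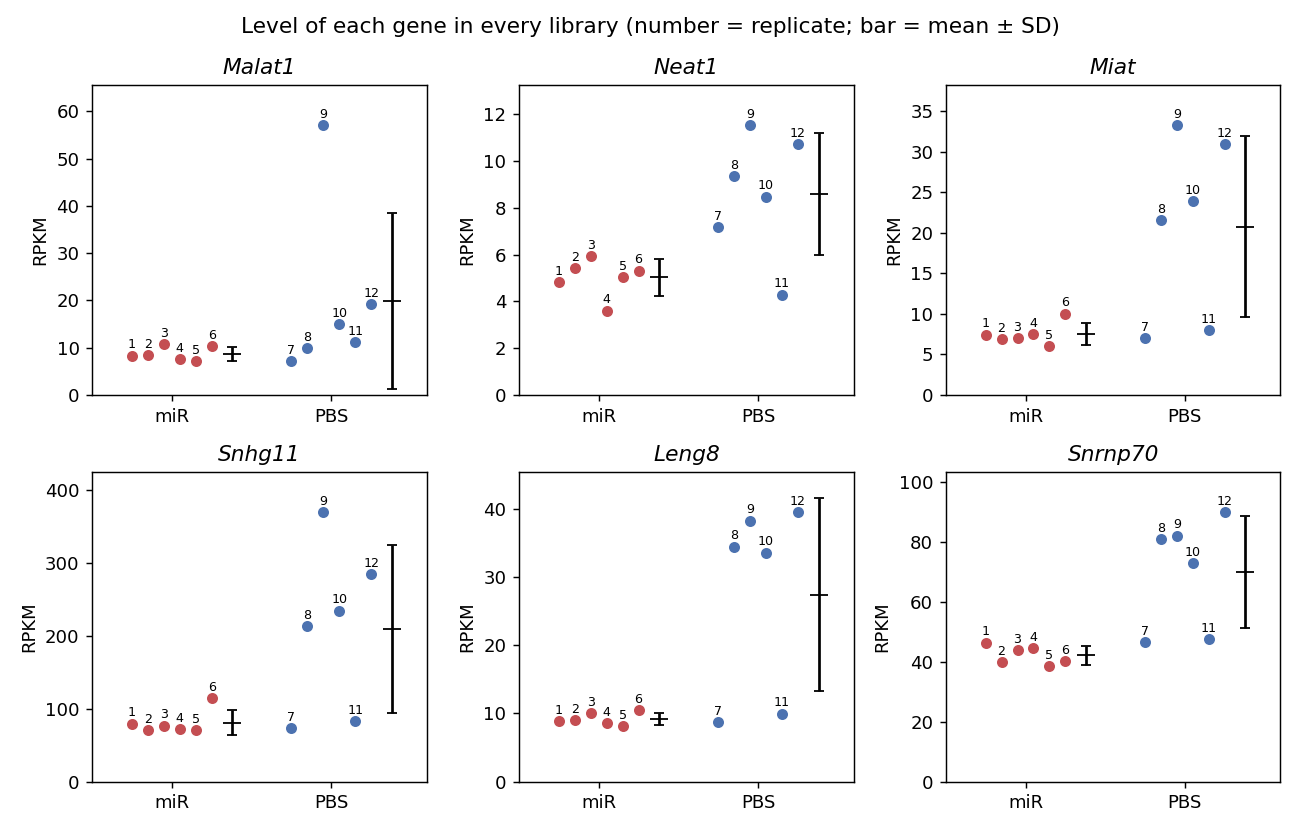
RPKM of each gene (y axis, linear from 0) in the 6 miR and 6 PBS libraries (points, numbered by replicate), with the group mean ± SD as a bar. PBS replicates 8, 9, 10 and 12 stand above the miR libraries in every panel except Malat1, where replicate 8 lies among them and replicate 9 reaches 57.0 RPKM.

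Within miR, per length, the levels ran in the order Snhg11, Snrnp70, Leng8, Malat1, Miat and Neat1. The ranges of Leng8, Malat1 and Miat overlapped, while those of Snhg11, Snrnp70 and Neat1 were clear of their neighbours in the order. The spread among the miR libraries on the log2 scale rested on 1 library for 3 of the noncoding RNAs. Of the tested genes 6.74% varied more than Snhg11 over the 6 miR libraries and 70.0% without miR replicate 6. For Miat these shares were 9.99% and 41.2%, and for Neat1 10.6% and 52.5% without miR replicate 4. For Malat1 10.6% of genes varied more, and 7.71% to 14.1% with each miR library left out. For Leng8 and Snrnp70 35.9% and 50.3% of genes varied more.

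The high PBS libraries did not rank alike in all 6 genes. Relative to the miR mean, Leng8 was 3.75, 4.16, 3.66 and 4.30 times as high in PBS replicates 8, 9, 10 and 12. Snrnp70 was 1.92, 1.94, 1.73 and 2.13 times as high in those libraries. In both protein-coding genes the 4 libraries were close together and replicate 12 was the highest. Snhg11, by contrast, was 2.65, 4.58, 2.91 and 3.53 times as high, and Miat was 2.88, 4.44, 3.19 and 4.14 times as high. Malat1 was graded most steeply, at 1.13, 6.53, 1.72 and 2.20 times the miR mean in the same order. Neat1 was 1.86, 2.29, 1.69 and 2.14 times as high, a range that overlapped that of Snrnp70. Steep grading was therefore not shared by all the noncoding RNAs. In the 4 noncoding RNAs replicate 9 was the highest, although for Miat and Neat1 it was only 1.07 times the next library. PBS replicates 7 and 11 lay between 0.814 and 1.43 times the miR mean in all 6 genes. Whether the grading differs between the noncoding and the protein-coding genes beyond the spread of animals was not tested.

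**Figure D2:**
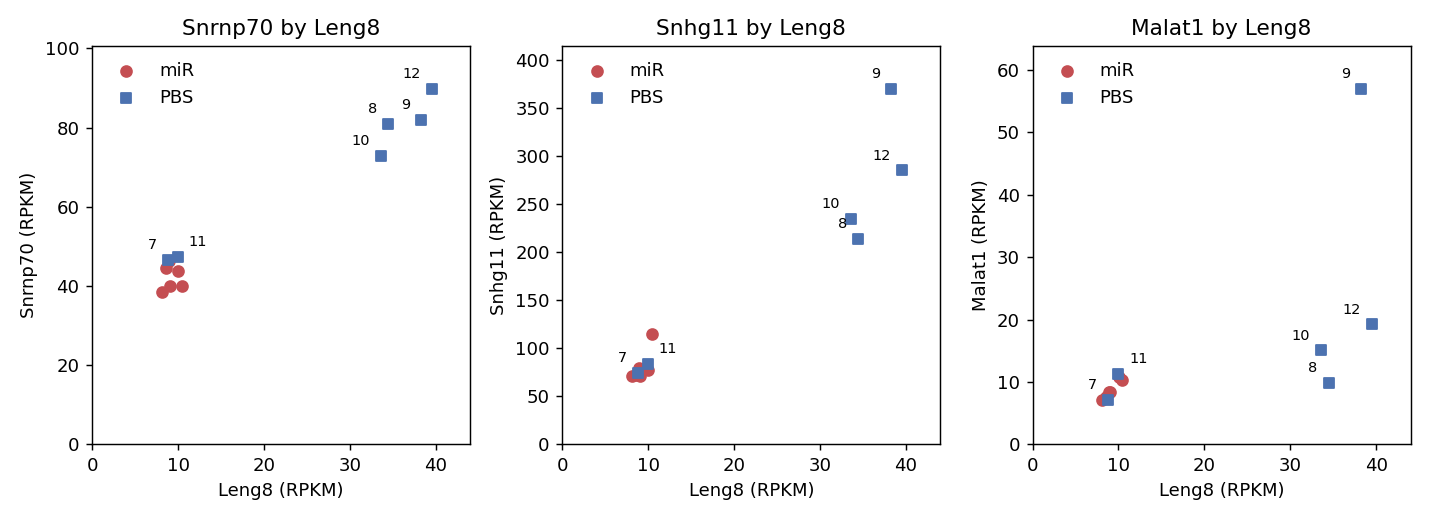
Levels of Snrnp70, Snhg11 and Malat1 (y axes, RPKM) against that of Leng8 (x axis, RPKM) in the miR libraries (circles) and the PBS libraries (squares, numbered by replicate). At similar Leng8 levels of 33.6 to 39.5 RPKM, PBS replicates 8, 9, 10 and 12 range from 72.8 to 89.8 RPKM for Snrnp70 and from 9.83 to 57.0 RPKM for Malat1.

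Over the 12 libraries Miat and Snhg11 were the most alike pair (Pearson r = 0.995 of log2 levels), and Malat1 and Snrnp70 the least (r = 0.704). Both values are descriptions over libraries that share a scaling, and they rest on the libraries for which the genes were chosen.

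The genes given here from beside the 6 on the chromosome mostly did not share the division. Malat1 and Neat1 lie next to each other with no tested gene between them, and beside Neat1 lies Frmd8, a membrane-linked adaptor. Frmd8 measured 2.98 to 4.38 RPKM in miR and 3.17 to 5.38 RPKM in PBS. Leng8 starts 129 bases from the opposite-strand gene D030047H15Rik and ends 9 bases from Leng9. D030047H15Rik measured 9.98 to 14.1 RPKM in miR and 11.2 to 12.8 RPKM in PBS, and Leng9 2.22 to 2.91 RPKM in miR and 2.44 to 3.32 RPKM in PBS. The miR and PBS ranges of both genes overlapped, as did those of Leng8 itself. Leng9 had 4 PBS libraries, replicates 7, 8, 10 and 12, above its highest miR library, and 11.8% of all genes had at least 4. Its difference was -0.15 (SE 0.08), and D030047H15Rik had 0 such libraries.

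The nearest tested genes of Miat are C130026L21Rik, 626 kb away, and Crybb1, a lens crystallin. C130026L21Rik measured 1.52 to 2.03 RPKM in miR and 1.55 to 2.26 RPKM in PBS, and Crybb1 1.14 to 2.11 RPKM in miR and 1.39 to 2.15 RPKM in PBS. The neighbour with PBS replicates 8, 9, 10 and 12 above every miR library was that of Snhg11, 9430008C03Rik on the opposite strand 14115 bases away. It measured 1.18 to 1.68 RPKM in miR and 1.36, 2.25, 2.91, 2.38, 1.48 and 2.68 RPKM in PBS replicates 7 to 12, the division seen in Snhg11 at a much lower level. Its difference of -0.47 (SE 0.15) did not pass in limma (adjusted p = 0.174). Ralgapb, on the other side of Snhg11, measured 14.2 to 17.7 RPKM in miR and 14.8 to 17.03 RPKM in PBS. Beside Snrnp70, Lin7b, a synaptic scaffold protein, measured 14.2 to 18.6 RPKM in miR and 18.0 to 21.4 RPKM in PBS. Its difference of -0.26 (SE 0.07) did not pass in limma either (adjusted p = 0.174). All its PBS libraries except replicate 9 lay above its highest miR library. Lhb, the luteinizing hormone beta chain, measured 0.779 to 2.19 RPKM in miR and 1.70 to 3.48 RPKM in PBS.

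For each of the 6 genes, the 3 tested genes most like it over the 12 libraries were found by Pearson correlation of log2 levels. With Malat1 went A930013F10Rik (r = 0.985), Cramp1l (r = 0.964) and Sfrs18 (r = 0.957), the older symbol of Pnisr, an SR-related splicing protein. A930013F10Rik measured 0.539 to 0.891 RPKM in miR and 0.551, 0.902, 3.04, 1.19, 0.930 and 1.42 RPKM in PBS replicates 7 to 12. Like Malat1 it had a single peak, in replicate 9. All its miR libraries lay below 1 RPKM, so it passed the filter at a mean of 1 RPKM only through its PBS libraries. Its place beside Malat1 therefore rests on the same high PBS values and is a description only. With Neat1 went BC024139 (r = 0.937), the DNA repair glycosylase Neil1 (r = 0.931) and the kinase Mknk1 (r = 0.931), at lower likeness than for any other gene.

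With Miat went Krba1 (r = 0.994), Meg3 (r = 0.994) and Leprel2 (r = 0.993), the older symbol of the collagen-modifying enzyme P3h3. With Snhg11 went Meg3 again (r = 0.994), Ankzf1 (r = 0.993), which frees stalled chains from ribosomes, and the amylase gene Amy1 (r = 0.992). Meg3, the imprinted noncoding RNA by which the libraries were first seen to divide, measured 49.9 to 68.1 RPKM in miR and 50.6, 158, 316, 190, 58.0 and 245 RPKM in PBS replicates 7 to 12. Like Miat and Snhg11, it was graded with replicate 9 the highest.

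With Leng8 went Ssh3, a cofilin phosphatase (r = 0.994), Fam116b (r = 0.993) and Clasrp, an SR-related protein that binds the splicing kinase Clk4 (r = 0.993). Clasrp measured 6.43 to 7.95 RPKM in miR and 7.69, 18.6, 16.9, 16.1, 7.35 and 18.6 RPKM in PBS replicates 7 to 12. With Snrnp70 went Atxn2l, a stress granule protein (r = 0.989), the collagen chain Col16a1 (r = 0.989) and the nuclear anchor protein Akap8l (r = 0.986). Akap8l measured 13.95 to 16.5 RPKM in miR and 15.8, 33.2, 34.5, 31.9, 17.5 and 38.1 RPKM in PBS replicates 7 to 12, level across 4 libraries as in Snrnp70. The choice of the 3 depended on the measure: with Spearman's correlation, the 6 PBS libraries alone or the 6 miR libraries alone, 0 or 1 of the 3 stayed among the top 3 for each gene.

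**Figure D3:**
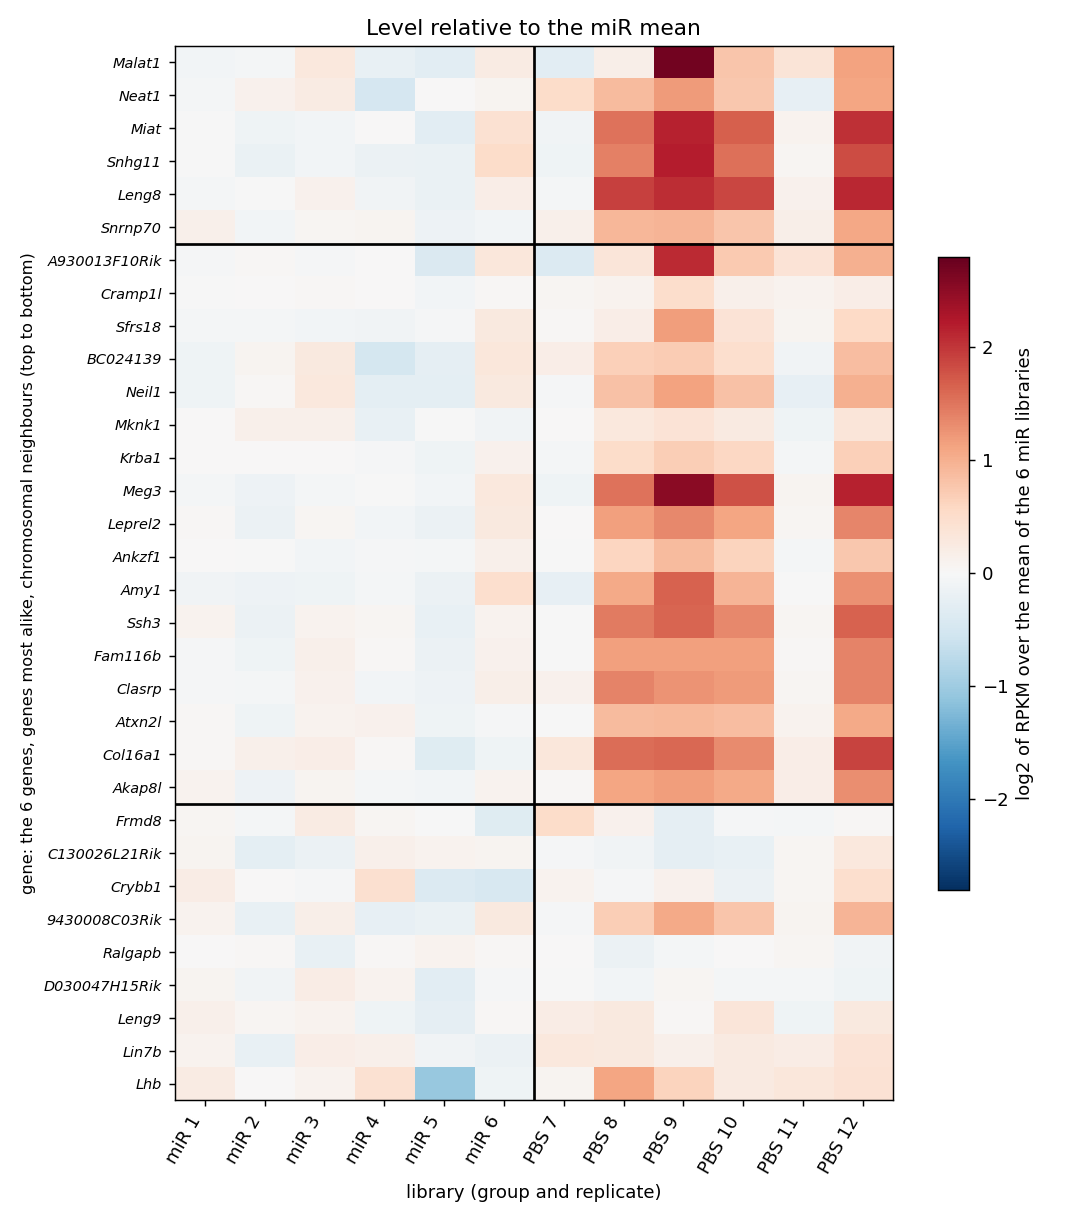
log2 of each library's RPKM over the mean of the 6 miR libraries (colour, red higher and blue lower) for the 6 genes, the genes most alike and the chromosomal neighbours (rows, top to bottom), with miR libraries left and PBS libraries right. PBS replicates 8, 9, 10 and 12 are mostly red in the upper 2 blocks, most deeply for Malat1 in replicate 9, while the neighbours stay pale apart from 9430008C03Rik and Lhb.

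The partners of these RNAs and proteins were taken as 7 lists, chosen with earlier results of these data known. In each list, 0 members passed an adjusted p of 0.05 in limma over all tested genes, and the smallest adjusted p in each was 0.174. These counts depended on PBS replicates 7 and 11. Without replicate 7, 5 speckle proteins and 1 to 3 members of each of the other 6 lists passed, among 909 of 13273 genes. Without replicate 11, 3 speckle proteins and 0 to 2 of each other list passed, among 429 of 13273 genes. At least 4 PBS libraries lay above the highest miR library in 6 of 10 speckle, 5 of 13 retained-intron, 4 of 15 paraspeckle, 4 of 15 decay, 3 of 12 other noncoding, 3 of 16 U1 and 3 of 16 export genes, against 11.8% of all genes. The noncoding list counts Meg3, by which the libraries were first seen to divide. The counts that follow are at an unadjusted p under 0.05, to be read against 9.12% higher and 11.1% lower in miR among all genes, whose median difference was 0.01 on the log2 scale. Under all alternatives run, the list medians ran from -0.13 to -0.06 for paraspeckle, -0.26 to -0.18 for speckle, -0.04 to -0.01 for U1, -0.12 to -0.04 for decay and -0.25 to -0.09 for retained-intron genes. With every transcript row the retained-intron median was -0.09, the weakest of its range. Single libraries moved the medians too. Without PBS replicate 9 the paraspeckle median was -0.06, the speckle median -0.18, the retained-intron median -0.11 and the U1 median -0.02. Without PBS replicate 7 the speckle median was -0.26 and the retained-intron median -0.25. Without miR replicate 2, 5 or 6 the decay median was -0.04, -0.07 or -0.07. The U1 median also ran from -0.04 to -0.01 without 1 of PBS replicates 8, 10, 11 and 12 or miR replicate 6.

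Of 15 paraspeckle proteins, the binding partners of Neat1, 2 were higher and 7 lower in miR at that level, with a median difference of -0.11. Dazap1, an RNA-binding protein, averaged 11.7 ± 1.86 RPKM in miR and 14.5 ± 1.53 RPKM in PBS (each ± SD, n = 6; limma adjusted p = 0.174). Matr3, a nuclear matrix protein, had a difference of the other sign, with 121 ± 7.75 RPKM in miR and 105 ± 10.4 RPKM in PBS (each ± SD, n = 6; limma adjusted p = 0.174). The core paraspeckle protein Sfpq averaged 28.3 RPKM in miR and 32.3 RPKM in PBS, while its partner Nono averaged 28.8 RPKM in miR and 28.1 RPKM in PBS. Neither shows a step like that of Neat1 in the 4 high PBS libraries.

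Of 10 nuclear speckle proteins, the neighbours of Malat1, 0 were higher and 6 lower in miR, with a median difference of -0.21. Srrm2, a scaffold of speckles, measured 37.6 to 41.6 RPKM in miR and 38.5, 51.9, 73.9, 57.8, 41.5 and 57.7 RPKM in PBS replicates 7 to 12 (difference -0.42, limma adjusted p = 0.174). Acin1, of the exon junction complex, measured 21.2 to 23.9 RPKM in miR and 22.4, 34.7, 31.0, 34.1, 24.9 and 34.8 RPKM in PBS replicates 7 to 12 (difference -0.39, limma adjusted p = 0.174). Srrm2 had its peak in replicate 9 as Malat1 did, and Acin1 was level across the 4 libraries as Leng8 was. Son, the other scaffold of speckles, averaged 32.8 RPKM in miR and 32.6 RPKM in PBS.

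Of 16 proteins of the U1 particle or bound to it, the partners of Snrnp70, 1 was higher and 3 lower in miR, with a median difference of -0.03. Prpf40b, a U1-associated splicing protein, averaged 12.6 ± 1.22 RPKM in miR and 17.3 ± 3.86 RPKM in PBS (each ± SD, n = 6; limma adjusted p = 0.174). Tia1, which helps U1 bind weak sites, measured 6.54 to 9.24 RPKM in miR and 7.43, 9.30, 19.6, 10.2, 7.89 and 12.5 RPKM in PBS replicates 7 to 12 (limma adjusted p = 0.184). Of the other U1-specific proteins, whose groups overlapped, Snrpa averaged 18.3 ± 3.33 RPKM in miR and 20.5 ± 1.16 RPKM in PBS (each ± SD, n = 6). Snrpc averaged 2.58 ± 0.249 RPKM in miR and 2.71 ± 0.0895 RPKM in PBS (each ± SD, n = 6).

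Of 16 export proteins, among them the TREX-2 subunits with which the SAC3 domain is known to work in yeast, 2 were higher and 2 lower in miR. Their median difference was -0.01, and over the alternative settings it ran from -0.02 to 0.01, above 0 with median scaling, with every transcript row, with a filter at 5 RPKM and without miR replicate 5. Nxf1, the main messenger RNA export receptor, measured 15.5 to 17.9 RPKM in miR and 15.9, 21.2, 27.4, 23.3, 17.2 and 24.2 RPKM in PBS replicates 7 to 12 (limma adjusted p = 0.174). Cetn2, a centrin and TREX-2 subunit, averaged 43.5 ± 4.08 RPKM in miR and 37.2 ± 4.01 RPKM in PBS (each ± SD, n = 6; limma adjusted p = 0.177). Mcm3ap, which carries the SAC3 domain of mammalian TREX-2, averaged 7.14 RPKM in miR and 7.34 RPKM in PBS.

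Of 15 nuclear RNA decay proteins 0 were higher and 3 lower in miR, with a median difference of -0.11. Pabpn1, the nuclear poly-A binding protein, measured 35.04 to 40.3 RPKM in miR and 38.9, 71.5, 68.1, 69.0, 37.6 and 78.8 RPKM in PBS replicates 7 to 12 (difference -0.63, limma adjusted p = 0.174). Its levels in PBS were spaced as those of Leng8 and Snrnp70, with a gap between 40.3 and 68.1 RPKM that held no library. Zcchc8, a subunit of the NEXT complex, averaged 3.16 ± 0.199 RPKM in miR and 3.89 ± 0.437 RPKM in PBS (each ± SD, n = 6; limma adjusted p = 0.174).

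The list of other long noncoding RNAs had 15 members in the table and 12 tested, with 2 higher and 3 lower in miR. Their median difference was -0.01, and over the alternative settings it ran from -0.05 to 0.02, above 0 with median scaling, with quantile normalization and without PBS replicate 8 or 11 or any 1 of miR replicates 1, 3, 4 and 5. Meg3 had a difference of -1.32 (SE 0.38, limma adjusted p = 0.174), and B230206F22Rik, the older symbol of Ftx in the X-inactivation centre, one of -0.77 (SE 0.26, limma adjusted p = 0.177). Mirg, a microRNA host in the Meg3 cluster, measured 3.10 to 5.16 RPKM in miR and 2.79, 15.3, 13.9, 13.8, 3.42 and 15.3 RPKM in PBS replicates 7 to 12. Tug1 averaged 27.4 ± 0.979 RPKM in miR and 25.1 ± 1.84 RPKM in PBS (each ± SD, n = 6). Gas5, another host of small nucleolar RNAs, measured 25.5 to 33.3 RPKM in miR and 26.6 to 32.6 RPKM in PBS. The 3 with at least 4 PBS libraries above the highest miR library were Meg3, Mirg and B230206F22Rik.

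Of 13 genes known to keep unspliced introns in nuclear RNA 0 were higher and 5 lower in miR at an unadjusted p under 0.05, with a median difference of -0.19 and all 13 differences below 0. Ccnl2, a cyclin of the splicing kinases, measured 7.31 to 8.50 RPKM in miR and 8.09, 12.7, 19.9, 13.5, 8.18 and 14.1 RPKM in PBS replicates 7 to 12 (limma adjusted p = 0.174). Clk1, a kinase of SR proteins, measured 19.6 to 24.0 RPKM in miR and 21.4, 27.3, 40.9, 27.1, 21.3 and 33.2 RPKM in PBS replicates 7 to 12 (limma adjusted p = 0.186). In both, replicate 9 was the highest, as in Snhg11. Ddx5, a helicase with a known retained intron, averaged 105 ± 4.95 RPKM in miR and 107 ± 6.50 RPKM in PBS (each ± SD, n = 6). Sfrs18 of this list was also among the genes most like Malat1, and Ddx39b and Luc7l are each in 2 of the 7 lists.

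**Figure D4:**
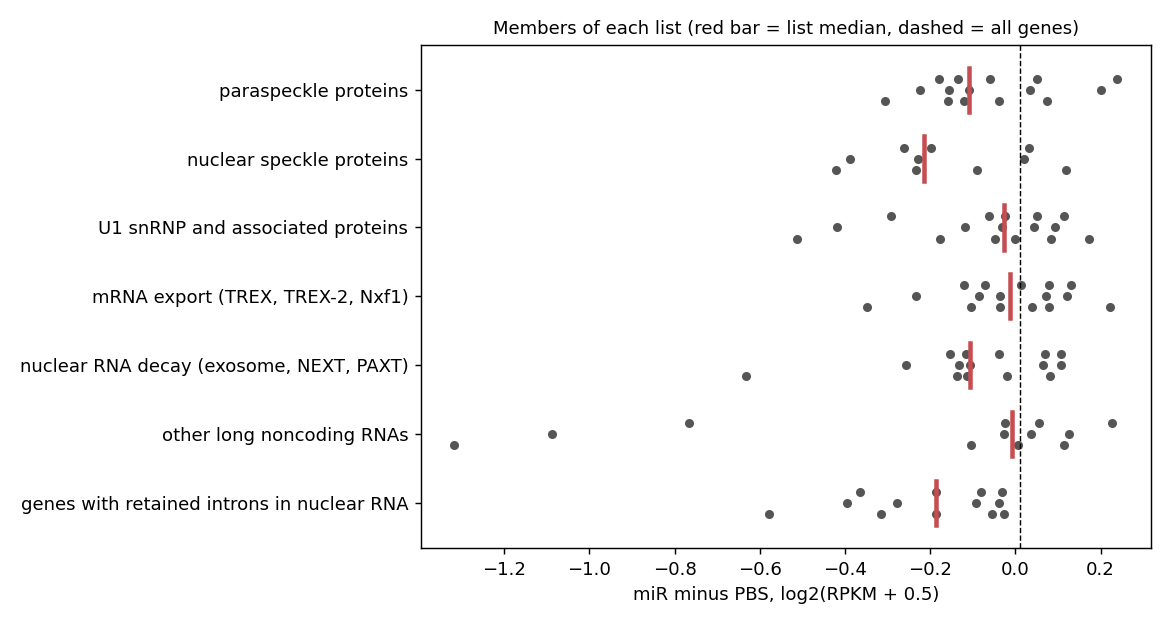
Difference between miR and PBS on the log2(RPKM + 0.5) scale (x axis, positive higher in miR) for each tested member (point) of the 7 lists (rows), with the list median as a red bar and the median of all genes as a dashed line. List medians lie between -0.21 and -0.01, and the points farthest to the left belong to other long noncoding RNAs, with Meg3 at -1.32.

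The labelled tissue was checked against its markers: all 6 PVN markers (Oxt, Avp, Crh, Trh, Sim1, Otp) were at 1 RPKM or more on average, and their summed level was 1984 to 5160 RPKM in miR and 2190 to 5779 RPKM in PBS. The summed level of the astrocyte markers moved with the division of the PBS libraries. This summed level was 485 to 547 RPKM in miR and 526, 451, 422, 406, 517 and 428 RPKM in PBS replicates 7 to 12, so the 4 PBS libraries high for Leng8 were below every miR library, and all 5 markers had a higher mean in miR. Gfap by itself did not follow the division, with 33.4 to 65.4 RPKM in miR and 42.5, 41.8, 33.9, 29.7, 53.5 and 56.4 RPKM in PBS replicates 7 to 12. The part of this in the results above was not tested. Neuron markers summed to 1010 to 1145 RPKM in miR and 973 to 1163 RPKM in PBS, and all 5 endothelial markers had a lower mean in miR, with sums of 19.2 to 27.6 RPKM in miR and 23.5 to 30.7 RPKM in PBS. Oligodendrocyte markers summed to 481 to 790 RPKM in miR and 320 to 1278 RPKM in PBS, with both extremes in PBS replicates 7 and 11, the libraries low for Leng8. All 5 oligodendrocyte markers also had a higher mean in miR on the log2 scale. Microglial markers summed to 64.8 to 74.3 RPKM in miR and 56.9 to 73.7 RPKM in PBS, and thalamic markers to 14.4 to 78.2 RPKM in miR and 16.5 to 63.7 RPKM in PBS. Of the choroid plexus markers Ttr and Kcnj13, of the meningeal markers Col1a1, Lum and Col3a1, and of the red blood cell markers Alas2 were below 1 RPKM on average. Summed levels were 7.63 to 9.55 RPKM in miR and 7.13 to 10.2 RPKM in PBS for choroid plexus, 3.92 to 4.65 RPKM in miR and 3.86 to 5.76 RPKM in PBS for meninges, and 35.4 to 86.6 RPKM in miR and 30.5 to 73.6 RPKM in PBS for red blood cells.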

How the data were processed

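RNA was measured in 6 miR and 6 PBS libraries, made stranded with poly-A selection (250 ng RNA input), as the labels' protocols state. RPKM per RefSeq transcript was deposited by the authors, on mm9. The submitters' processing notes name that build and edgeR. The sources used here do not give the aligner, the counter, use of strand or scaling, so reads of overlapping transcripts and paralogs cannot be separated. Of 913 rows without a symbol, 868 were named by accession, and each gene took its row of highest mean. Depth came from value steps of intronless olfactory receptor genes, a weak check because the same values set the steps. Differences were fitted over 13273 genes (mean of at least 1 RPKM) on log2(RPKM + 0.5) with limma 3.58.1 in R 4.3.3. The fit was 2-sided, with variance trend and Benjamini-Hochberg adjusted p below 0.05. On simulated data with 200 genes changed 2-fold it recovered 98% of them, and 7.11% of its calls were false. The simulated noise was independent between genes, so it does not cover libraries in which many genes move together, as here. Sequences came from GENCODE M21 and RefSeq tables (Python 3.11.15, pandas 2.3.3, matplotlib 3.10.9). The series calls the animals biological replicates. The 6 genes, 7 lists and rules were chosen with earlier results of these data known. Genes named are the 6, the 2 members of smallest p in each list, the 3 genes most like each of the 6, their neighbours (1 of which is not reported here) and Meg3. Sfpq, Nono, Son, Snrpa, Snrpc, Mcm3ap, Mirg, Tug1, Gas5 and Ddx5 were picked with their values in view. The alternatives covered other pseudocounts, filters, scalings and rows, no variance trend, and each library left out.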

Additional observations from a re-analysis of the deposited data

Results flagged for a closer look

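In groups of 6 libraries, a library was marked where its gap to the next, over the range of the group, exceeded Dixon's 95% critical value for 6. Of 90 groups tested 15 (16.7%) were marked. Chance would mark about 1 in 20 among genes chosen without regard to their values. All genes here but the neighbours were chosen by their values in these libraries, so that rate is no yardstick for this share. Genes chosen for likeness also repeat each other.

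PBS replicate 9 was marked as far above the other PBS libraries for Malat1 (57.0 RPKM) and for the genes most like it, A930013F10Rik (3.04 RPKM), Cramp1l (4.77 RPKM) and Sfrs18 (31.8 RPKM). It was not marked for Neat1, Miat, Snhg11, Leng8 or Snrnp70.

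miR replicate 6 was marked as far above the other miR libraries for Miat (10.04 RPKM) and Snhg11 (115 RPKM), and also for Meg3 (68.1 RPKM), Amy1 (11.7 RPKM), Ankzf1 (5.01 RPKM), Sfrs18 (17.2 RPKM), Srrm2 (41.6 RPKM), Tia1 (9.24 RPKM) and B230206F22Rik (3.13 RPKM). All of these are genes that were high in PBS replicate 9. In the lowest direction, miR replicate 5 was marked for Cramp1l (3.22 RPKM) and miR replicate 3 for Ralgapb (14.2 RPKM).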

How the results depend on the processing

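No paired analysis was possible because the labels give no litter or batch by which miR and PBS animals could be paired. The differences of the 6 genes stayed below 0 in miR under all alternatives run: from -1.01 to -0.43 for Malat1, -0.84 to -0.58 for Neat1, -1.46 to -1.03 for Miat, -1.42 to -0.96 for Snhg11, -1.57 to -1.15 for Leng8 and -0.78 to -0.60 for Snrnp70. The genes were chosen for high PBS values in these same libraries, so the constant sign is a description and carries no support. The count past the threshold was 0 under every other pseudocount, filter, scaling and row choice, and 0 to 909 with each library left out: 909 (243 higher, 666 lower) without PBS replicate 7, 429 (104 higher, 325 lower) without PBS replicate 11, 1 without miR replicate 3 and 0 otherwise. The list counts are to be read against 909 and 429 of 13273 genes. Without PBS replicate 7, 2 of 15 paraspeckle (1 higher, 1 lower), 5 of 10 speckle, 1 of 16 U1 and 2 of 16 export genes passed. So did 2 of 15 decay, 3 of 12 noncoding and 1 of 13 retained-intron genes. Without PBS replicate 11, 3 of 10 speckle, 2 of 15 decay, 1 of 12 noncoding and 1 of 13 retained-intron genes passed. Each list had 0 otherwise, and the cause was not tested. The median of all genes was 0.01, and 0.03 with median scaling. Depth was known only through value steps, and the RPKM of a low gene rests on few reads.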
